A study of Mus musculus with 2 samples.

Results

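The genes that build, guard and break down the lipid droplet were followed through the cell types of lung cells sorted for their retinoid content. They were 10 of the 32285 genes in the count tables, taken by name: the droplet coats *Plin2*, *Plin3* and *Plin4*, the lipase inhibitors *G0s2* and *Hilpda*, the lipases *Pnpla2*, *Lipe* and *Mgll*, and the acyltransferases *Dgat1* and *Dgat2*. Male C57BL/6 wild-type mice, 3 months old, gave the digested lungs, from which UV-positive cells were collected by flow cytometry, that is, by the light at 455 nm that stored retinoids emit. Sequencing took place on 2 occasions and gave 1 single-cell library each, called library 1 and library 2 here. Both hold the same condition, and the number of mice behind each was not given in the sources used here. All cells belong to 1 condition, so that the comparisons below are between cell types of the sorted cells.

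Neutral lipid is kept in the cell as droplets with a core of triglyceride and sterol or retinyl esters under a coat of perilipins. Triglyceride is made in its last step by the DGAT enzymes and taken apart in order by adipose triglyceride lipase (*Pnpla2*), hormone-sensitive lipase (*Lipe*) and monoacylglycerol lipase (*Mgll*), while the small proteins encoded by *G0s2* and *Hilpda* bind and inhibit the first of these lipases. In the lung, lipofibroblasts of the alveolar wall are the droplet-bearing cells of the stroma, and they are known to store retinyl esters as well.

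Cells with fewer than 200 genes or with over 10% of their UMIs (unique molecular identifiers, the counted molecules) from mitochondrial genes were left out. A kept cell entered a group if exactly 1 marker sum reached 3 UMIs, of *Col1a2*, *Mfap4* and *Pdgfra* for stromal cells, of *Cdh5*, *Pecam1* and *Egfl7* for endothelial cells, of *Epcam*, *Cdh1* and *Lamp3* for epithelial cells and of *Ptprc*, *Laptm5* and *Cd52* for immune cells. Stromal cells with at least 3 UMIs of *Dcn* were called adventitial and those with 0 were called alveolar. This cutoff was on UMIs not scaled for depth, and adventitial cells were the deeper. Their median was 6034 and 10655.5 UMIs in libraries 1 and 2, against 3958 and 6545 in alveolar cells. This gave 5805 and 5545 alveolar cells in libraries 1 and 2, 1017 and 998 adventitial cells, 56 and 360 endothelial cells, 930 and 101 epithelial cells, and 266 and 334 immune cells. Markers that the rule did not use were highest in the group they belong to, in both libraries. The alveolar fibroblast markers *Npnt*, *Itga8*, *Limch1* and *Inmt* summed to 11820 and 12510 CPM (UMIs scaled to a common total, defined below) in alveolar cells. In adventitial cells they still summed to 7744 and 8671 CPM. The adventitial markers *Pi16*, *Serpinf1*, *Col14a1* and *Dpt* summed to 1162 and 1006 CPM in adventitial cells and to 313 and 375 CPM in alveolar cells. The stromal groups thus shared these transcripts. The libraries held 48762735 and 93970185 UMIs, and 23 cell barcodes occurred in both. The endothelial sum of library 1 was the thinnest, at 119534 UMIs, where 3 UMIs already amount to 25.1 CPM. *Adipoq*, the defining adipocyte transcript, had 0 UMIs in every group of both libraries.

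A level in CPM is the sum of a gene's UMIs in all cells of 1 group and library, scaled so that all genes of that sum add up to 1e6. Intervals on a CPM value are exact Poisson 95% intervals and cover counting error only. The sums were tested between groups by edgeR's quasi-likelihood method over 13326 genes with library as a block, and a gene was called when its Benjamini-Hochberg adjusted p was under 0.05. With library as a block, the p-values rest in part on how the differences between groups varied between the 2 libraries, which may be technical. They also rest on the other genes, since the method draws each gene's spread toward a trend over all genes. An SE can therefore be small for a gene on which the 2 libraries disagree. The block takes out a shift of a whole library, and the cells were not treated as replicates. Fold changes from this fit are on the log2 scale and carry TMM normalisation factors, which were 0.698 and 0.786 for epithelial sums and 1.40 and 1.24 for endothelial sums, so that they can differ from the plain ratio of the CPM values. *Plin4* did not pass the filter on low counts, and the 9 other genes were tested.

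Stretches of genome at the start sites of *Hilpda*, *Mgll* and *Plin2* are shown, because the first 2 of these genes stood highest in endothelial cells and *Plin2* stood highest in alveolar and immune cells. *Lipe* also stood highest in endothelial cells, and its stretch is not shown. All stretches are from the RefSeq promoter table (build GRCm38.p6), which held windows for 8 of the 10 genes, reaching from 250 bases before to 50 bases after each start. Capitals mark the letters ACGTG, the core of the hypoxia response element, found on either strand. Where ACGTG lies on both strands at the same place, the overlapping matches spell the E-box CACGTG. The *Plin2* stretch runs on past the start site, so that the E-box spanning that site is shown whole.
Hilpda, first start, chr6:29272388-29272487, plus strand: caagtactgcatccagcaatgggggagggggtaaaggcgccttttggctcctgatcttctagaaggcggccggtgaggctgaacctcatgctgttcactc
Hilpda, before the second start, chr6:29272571-29272600, plus strand: gatggccagcggACGTGccccagggcgagc
Mgll, first start, chr6:88724312-88724411, plus strand: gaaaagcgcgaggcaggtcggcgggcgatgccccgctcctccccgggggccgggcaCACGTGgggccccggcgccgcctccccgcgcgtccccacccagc
Plin2, chr4:86670058-86670157, minus strand: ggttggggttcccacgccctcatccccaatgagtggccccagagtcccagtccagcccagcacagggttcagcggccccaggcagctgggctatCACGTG
ACGTG was present in a window of 4 of the 8 genes (*Plin2*, *Hilpda*, *Lipe* and *Mgll*), or 5 of their 11 windows, against 19.6% of all 32817 promoter windows. The *Hilpda* match began 43 bases before the second start site and the window of the first start held none. CACGTG was present for *Plin2*, *Lipe* and *Mgll*, in 3 of the 11 windows, against 7.15% of all windows. These matches are letters in a window and no binding was measured.

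*Plin2* encodes the perilipin that coats droplets outside adipose tissue. It lies on chromosome 4 (86648386 to 86670060, minus strand, GRCm38). Alveolar cells had a level of 211 CPM in library 1 and 181 CPM in library 2, and immune cells one of 202 and 191 CPM. Adventitial cells had 93.2 and 152 CPM, epithelial cells 84.3 and 78.4 CPM, and endothelial cells 25.1 and 55.2 CPM, the first of these from 3 UMIs. Alveolar and immune values interleaved and lay above every other value. The order of the levels was therefore immune and alveolar, then adventitial, then epithelial, then endothelial cells. *Plin2* was higher in alveolar than in endothelial cells by 2.17 on the log2 scale (SE 0.302, adjusted p = 1.44e-05) and higher than in epithelial cells by 0.70 (SE 0.239, adjusted p = 0.0212). The endothelial difference was 3.46 in library 1 alone, 1.87 in library 2 alone and 2.11 or more in each of the 12 alternatives with a test. Neighbours in the order that were not called different were immune and alveolar (-0.28 for alveolar minus immune, 95% interval -0.78 to 0.23, adjusted p = 0.351), alveolar and adventitial (0.67, 0.18 to 1.16, adjusted p = 0.0960, passing in 2 of 12 alternatives), and adventitial and epithelial (0.033, -0.48 to 0.54, adjusted p = 0.946).

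Within the immune cells *Plin2* was uneven. Cells with at least 3 UMIs of *F13a1*, *Cd300e* and *Ace* (monocyte-like, 42 in each library) had 338 CPM (254 to 441) in library 1 and 359 CPM (285 to 446) in library 2. None of these 3 markers was among their 10 leading genes by fold, which included *Gngt2*, *Cybb* and *Fcer1g*. Interstitial macrophage-like cells with *C1qa*, *C1qb* and *C1qc* had 198 CPM (129 to 289) in library 1. B cell-like cells had 0 UMIs in library 1 and 15.9 CPM in library 2. T cell-like cells had 64.3 CPM (30.9 to 118), dendritic-like cells 96.3 CPM (68.5 to 132) and NK cell-like cells 0 UMIs in library 2. Neutrophil-like cells had 90.8 CPM (36.5 to 187) in library 1 and 197 CPM (108 to 331) in library 2. The highest levels were in immune cells with 1 or 2 UMIs of the neutrophil markers *Csf3r*, *Retnlg* and *Cxcr2*. These 25 and 16 cells, which may include cells of the types above, had 429 CPM (308 to 583) and 405.5 CPM (293.5 to 546). None of these sets of cells was tested against another.

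*Plin3*, the perilipin that moves between cytosol and new droplets, lies on chromosome 17 (56277476 to 56292873, minus strand). Its level was 113 and 80.7 CPM in alveolar cells, 106 and 67.5 CPM in adventitial cells, and 88.7 and 95.2 CPM in epithelial cells. Endothelial cells had 33.5 and 30.8 CPM and immune cells 21.7 and 36.4 CPM. The 3 first groups overlapped and lay apart from the endothelial and immune values. Against alveolar cells, endothelial cells were lower by 1.71 on the log2 scale (SE 0.315, adjusted p = 0.000302) and immune cells by 1.34 (SE 0.273, adjusted p = 0.000456). Taken by itself, library 1 gave 2.05 for the immune difference and library 2 gave 0.91. *Plin3* was not called between alveolar and adventitial cells (0.13, -0.33 to 0.60), between alveolar and epithelial cells (-0.48, -0.96 to 0.0084) or between endothelial and immune cells (-0.37, -1.12 to 0.39).

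*Plin4*, a perilipin of white fat and muscle on chromosome 17 (56100591 to 56109803, minus strand), was close to the floor. Alveolar cells had 0.213 CPM from 5 UMIs in library 1 and 1.13 CPM in library 2, and adventitial cells 0.474 and 0.604 CPM. Epithelial cells had 2 UMIs in library 1 and 0 in library 2, and endothelial and immune cells had 0 in both. In the endothelial sum of library 1 a count of 0 has an exact upper limit of 30.9 CPM.

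**Figure D1:**
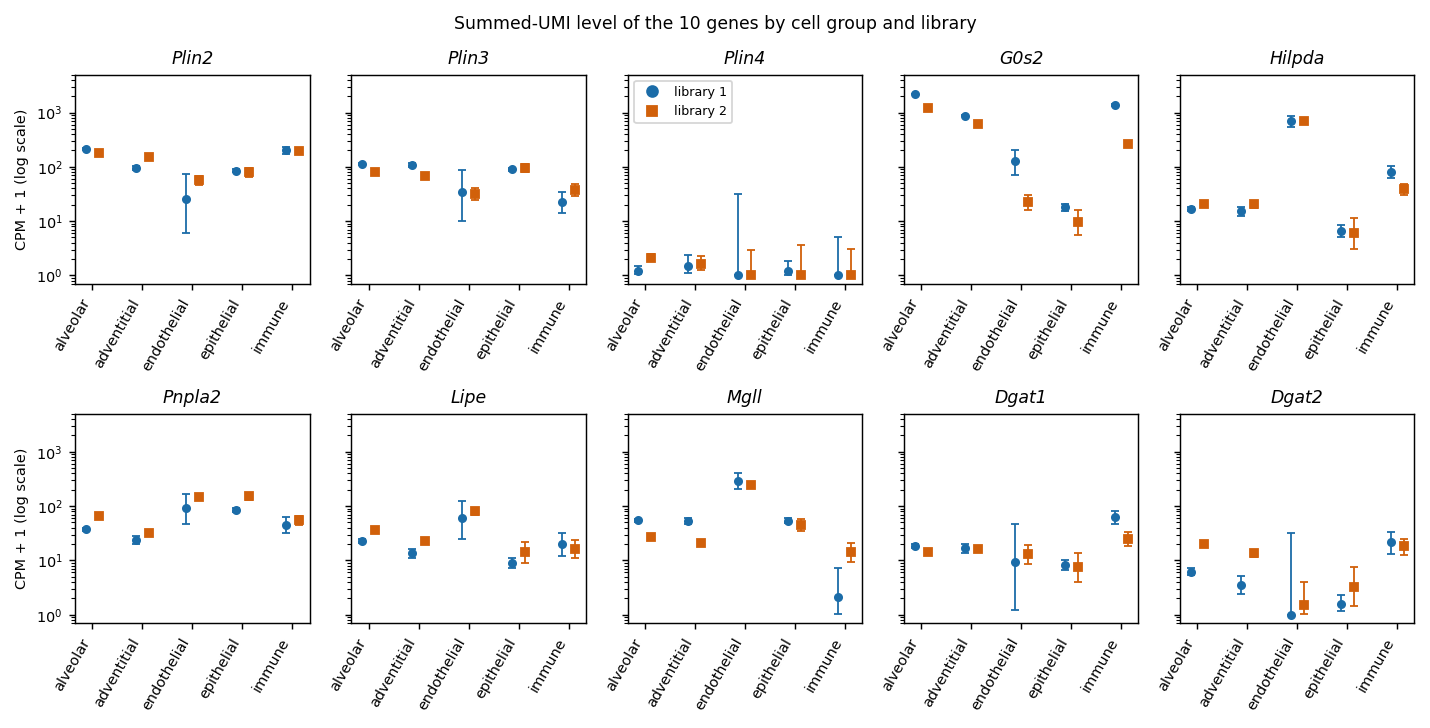
Level of each gene (CPM + 1, log scale, vertical axis) in the 5 cell groups (horizontal axis), with library 1 as circles and library 2 as squares. Bars are exact Poisson 95% intervals of each sum. *Hilpda* stands at 686 and 702 CPM in endothelial cells and under 80 in all other sums, and *G0s2* at 2188 and 1202 CPM in alveolar cells.

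*G0s2*, the G0/G1 switch protein that inhibits adipose triglyceride lipase, was the most abundant of the 10 transcripts in the stroma. It is a short gene on chromosome 1 (193272161 to 193273217, minus strand) that overlaps *Lamb3* on the other strand. Its level in alveolar cells was 2188 CPM in library 1 and 1202 CPM in library 2, and in adventitial cells 871 and 626 CPM. Immune cells had 1379 and 258 CPM, endothelial cells 126 and 21.1 CPM and epithelial cells 17.1 and 8.79 CPM. In each library the alveolar value was the highest, and library 1 was above library 2 in all 5 groups. The alveolar level exceeded that of endothelial cells by 5.43 on the log2 scale (SE 0.451, adjusted p = 2.14e-08) and that of epithelial cells by 6.60 (SE 0.452, adjusted p = 7.95e-10). Library 1 taken by itself gave 4.53 for the endothelial difference, and library 2 gave 5.98. Against adventitial cells the difference was 1.08 (SE 0.331, 0.38 to 1.77) and missed the threshold (adjusted p = 0.0523). It passed in 8 of the 12 alternatives with a test, whose adjusted p ran from 1.77e-05 to 0.879 while the difference kept between 1.01 and 1.18. Endothelial and epithelial cells were not called different (1.17, 0.088 to 2.24, adjusted p = 0.0802).

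The immune level of *G0s2* came mostly from few cells. Immune cells with at least 3 UMIs of *Csf3r*, *Retnlg* and *Cxcr2*, which are neutrophil markers, were 51 in library 1 and 30 in library 2. They held 83.0% and 82.9% of all immune UMIs of *G0s2*, at 13020 CPM (12220 to 13850) and 4852 CPM (4380 to 5360). The 190 and 288 immune cells with none of these markers had 217 and 31.3 CPM. Alveolar cells were higher than immune cells as a whole by 1.08 on the log2 scale (SE 0.339, adjusted p = 0.0130), a call that was lost in 4 of 13 alternatives (adjusted p up to 0.472) and that came to 0.34 from library 1 by itself and 1.99 from library 2. With every immune cell that had a neutrophil marker left out, an alternative chosen after the levels were seen, the difference was 3.88 (adjusted p = 1.68e-07). Neutrophil-like cells therefore stood above alveolar cells in the level of *G0s2* in each library, and the other immune cells below. The neutrophil-like cells were shallow, with a median depth of 0.334 and 0.300 of that of their library.

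After each cell was thinned to 2000 UMIs, 86.0% (85.1 to 87.0, exact Clopper-Pearson interval) and 77.0% (75.9 to 78.1) of alveolar cells had a UMI of *G0s2*, against 92.2% and 94.3% without thinning. The thinned shares were 58.4% and 60.4% in adventitial cells and 3.03% and 0% in epithelial cells, the group that served as the background here, whose median depths were 9340.5 and 13627 UMIs against 3958 and 6545 in alveolar cells. The variance over mean of its UMIs was 5.53 and 3.47 in thinned alveolar cells, where the less abundant *Plin2* had 1.22 and 1.14. This ratio depends on the level, so it does not rank the genes by variability. The 10% of alveolar cells with the most UMIs of *G0s2* carried 35.3% and 36.4% of them. Spearman's rho between *Plin2* and *G0s2* over thinned alveolar cells of library 1 was 0.067, a value too weak in sparse counts to be read as a relation.

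*Hilpda*, the hypoxia-inducible droplet protein that also inhibits adipose triglyceride lipase, was highest in another group. It lies on chromosome 6 (29272488 to 29275446, plus strand), and the first promoter stretch above ends 1 base before it. Endothelial cells had 686 CPM (546 to 852) in library 1 and 702 CPM in library 2. Immune cells had 79.8 and 38.1 CPM, alveolar cells 15.9 and 19.7 CPM, adventitial cells 14.2 and 19.3 CPM and epithelial cells 5.66 and 5.13 CPM. No endothelial value came near that of another group, and the libraries were close in this gene although 82 UMIs stood behind the first. The level in alveolar cells was below the endothelial one by 5.03 on the log2 scale (-5.03, SE 0.297, adjusted p = 2.62e-10), with -5.22 to -4.91 over the 12 alternatives with a test. Endothelial cells exceeded immune cells by 3.10 (SE 0.304, adjusted p = 2.41e-07) and epithelial cells by 6.13 (SE 0.359, adjusted p = 3.21e-10). Immune cells were above alveolar cells (-1.93 for alveolar minus immune, SE 0.296, adjusted p = 2.56e-05, with -2.64 in library 1 alone and -1.17 in library 2 alone) and alveolar above epithelial cells (1.10, SE 0.349, adjusted p = 0.0136). Alveolar and adventitial cells, neighbours in the order, were not called different (0.056, -0.51 to 0.62).

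Within the endothelium the level of *Hilpda* was high in both types that could be told apart. Cells with a sum of at least 3 UMIs of *Plvap* and *Gpihbp1* were left unnamed because only 2 markers defined them. They had 885 CPM (697 to 1107) in the 42 cells of library 1 and 737 CPM (685 to 791) in the 220 cells of library 2. *Lyve1*, *Ccl21a* and *Vwf* were among their 10 leading genes by fold in library 2 only, so the mix of cells may differ between the libraries. Aerocyte-like cells with *Car4*, *Ednrb* and *Apln*, of which library 2 held 32, had 550 CPM (439 to 681). The share of endothelial cells with a UMI of *Hilpda* after thinning was 38.5% (20.2 to 59.4, of 26 cells) and 70.8% (65.5 to 75.8, of 312 cells). The shallower endothelial cells, 30 of 56 in library 1, were left out. The share was 11.35% and 5.48% in immune cells and 3.06% and 4.18% in alveolar cells. It was 2.7% and 3.51% in adventitial cells and 0.866% and 1.98% in epithelial cells. The other hypoxia-induced genes of a list of 8 (*Vegfa*, *Slc2a1*, *Ndrg1*, *Pdk1*, *Ankrd37*, *Egln3*, *Bnip3* and *Pfkfb3*) summed to 494 and 499 CPM in endothelial cells, 365 and 413 CPM in alveolar cells, 209 and 273 CPM in adventitial cells, 182 and 272 CPM in epithelial cells and 96.9 and 108 CPM in immune cells. *Egln3* was at 0 in the endothelial and epithelial sums of both libraries and in the alveolar sum of library 2. In the endothelial sum of library 1, *Slc2a1*, *Pdk1* and *Ankrd37* were at 0 as well, and the whole list held 59 UMIs. The part of these hypoxia-induced genes in the level of *Hilpda* was not tested.

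**Figure D2:**
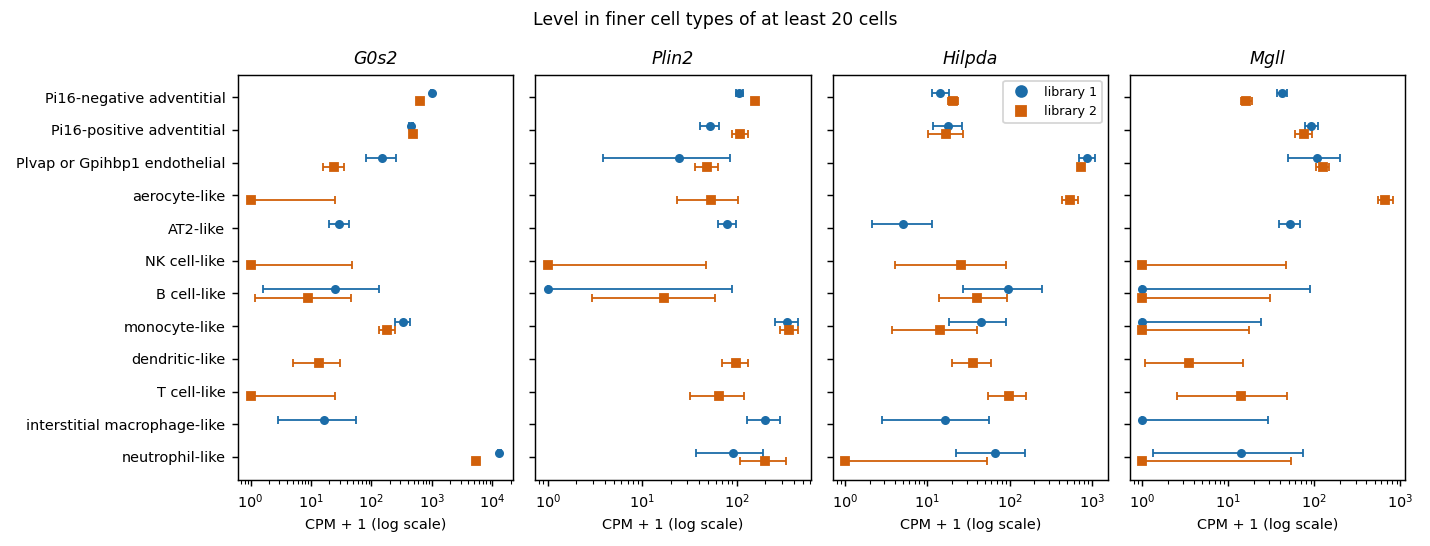
Level (CPM + 1, log scale, horizontal axis) of *G0s2*, *Plin2*, *Hilpda* and *Mgll* in finer cell types with at least 20 cells in a library (vertical axis), with library 1 as circles, library 2 as squares and exact Poisson 95% intervals. Cells that met several finer rules are not shown, which left 29 of the 30 neutrophil-like cells of library 2. *G0s2* is highest in neutrophil-like cells (13020 and 5327 CPM), and *Mgll* in aerocyte-like cells (668 CPM, library 2).

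*Pnpla2*, the lipase that starts the breakdown of triglyceride, lies on chromosome 7 (141455198 to 141460743, plus strand). Endothelial cells had 92.0 and 145 CPM and epithelial cells 83.2 and 149 CPM. Alveolar cells had 36.4 and 63.5 CPM, immune cells 44.5 and 53.5 CPM and adventitial cells 23.1 and 30.8 CPM. Library 2 was the higher in all 5 groups, and within each library the endothelial and epithelial values were the upper pair. Alveolar cells exceeded adventitial cells by 0.83 on the log2 scale (SE 0.198, adjusted p = 0.0106), which did not pass only without the library block (adjusted p = 0.412). They were below endothelial cells (-1.08, SE 0.226, adjusted p = 0.00103) and below epithelial cells (-1.75, SE 0.197, adjusted p = 6.07e-07). AT2-like cells with *Slc34a2*, *Lamp3* and *Abca3* had 84.8 CPM (67.6 to 105) in library 1. They were the 128 of its 930 epithelial cells that met this finer rule and no other. Most of that group met several finer rules or none, so 128 is not a count of its AT2 cells. Alveolar and immune cells were not called different (-0.25, -0.72 to 0.22), and the sign of that difference turned to 0.18 when immune cells with neutrophil markers were left out.

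*Lipe*, hormone-sensitive lipase, which also hydrolyses retinyl esters, lies on chromosome 7 (25379527 to 25398710, minus strand) and overlaps *4732471J01Rik* on the other strand. Its level was 58.6 and 79.0 CPM in endothelial cells, the first from 7 UMIs, 21.6 and 35.1 CPM in alveolar cells and 12.5 and 22.0 CPM in adventitial cells. Immune cells had 19.4 and 15.4 CPM and epithelial cells 8.09 and 13.2 CPM. Endothelial values lay above all others. Alveolar cells were below endothelial cells (-1.06, SE 0.255, adjusted p = 0.00324) and above epithelial cells (0.87, SE 0.252, adjusted p = 0.00759). Their difference from adventitial cells was 0.69 (SE 0.210) and lay at the threshold (adjusted p = 0.0489), with 5 of 12 alternatives passing and adjusted p from 0.0263 to 0.650. In the endothelium, *Lipe* stood at 69.8 and 85.5 CPM in the *Plvap* and *Gpihbp1* cells and at 26.2 CPM (7.13 to 67.0, from 4 UMIs) in aerocyte-like cells.

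*Mgll*, which frees the last fatty acid from glycerol, lies on chromosome 6 (88724412 to 88828360, plus strand) and shares its strand with 3 annotated predicted genes (*Gm44005*, *Gm43999* and *Gm44001*), whose reads may be split from it. Endothelial cells had 293 CPM (204 to 407) and 244 CPM, alveolar cells 53.4 and 26.1 CPM, epithelial cells 53.3 and 43.9 CPM and adventitial cells 52.3 and 20.3 CPM. Immune cells had 1.14 CPM, from 1 UMI, and 13.2 CPM. The endothelial values were apart from those of the other groups at the top. The immune values were the lowest, but in library 2 the immune interval (8.48 to 19.7 CPM) overlapped the adventitial one (17.8 to 23.1 CPM). The alveolar level was below the endothelial one (-2.68, SE 0.359, adjusted p = 9.45e-06, with -2.05 in library 1 alone and -3.05 in library 2 alone) and, in the fit, below the epithelial one (-0.88, SE 0.341, adjusted p = 0.0402), though the CPM values of library 1 were nearly equal. It was above the immune one (1.70, SE 0.500, adjusted p = 0.00847). By itself library 1 gave 5.03 and library 2 gave 0.74, and the ratio of CPM values in library 1 was 46.9 with a counting interval of 8.40 to 1852. The epithelial call passed in 7 of 12 alternatives and the immune one in 12 of 13. Alveolar and adventitial cells were not called different (0.13, -0.55 to 0.81).

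*Mgll* divided both the endothelium and the adventitia. Aerocyte-like cells had 668 CPM (544 to 810) in library 2, where cells with *Plvap* and *Gpihbp1* had 124 CPM (104 to 148), and in library 1 the latter had 105 CPM (47.9 to 199). Adventitial cells with a UMI of *Pi16*, a marker of perivascular fibroblasts, had 91.3 and 74.6 CPM, and those without had 41.0 and 15.1 CPM. *G0s2* went the other way, with 444 and 494 CPM in the *Pi16*-positive and 994 and 638 CPM in the *Pi16*-negative cells, and so did *Plin2*, with 50.6 and 108 CPM against 106 and 156 CPM. These divisions had the same direction in both libraries where both could be read, and they were not tested.

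*Dgat1*, which esterifies diacylglycerol and can also esterify retinol, lies on chromosome 15 (76502015 to 76511953, minus strand). It was low throughout, with 17.6 and 13.4 CPM in alveolar cells, 16.0 and 15.3 CPM in adventitial cells, 8.37 CPM (1 UMI) and 11.9 CPM in endothelial cells and 7.28 and 6.59 CPM in epithelial cells. Immune cells had 61.6 and 23.7 CPM, above all other sums. The alveolar level was below the immune one (-1.62, SE 0.285, adjusted p = 0.000115), a call kept in all 13 alternatives with a test. Cells with at least 3 UMIs of the neutrophil markers had 376 and 113 CPM of *Dgat1* and held 53.7% and 20.9% of its immune UMIs, and immune cells with none had 32.7 and 18.4 CPM. Alveolar cells were not called different from adventitial (-0.068, -0.58 to 0.45), endothelial (0.39, -0.49 to 1.27) or epithelial cells (0.68, 0.011 to 1.34, adjusted p = 0.0845).

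*Dgat2*, the acyltransferase that works at the droplet surface, lies on chromosome 7 (99153658 to 99182719, minus strand). Its level was 5.16 and 18.7 CPM in alveolar cells, 2.53 and 12.5 CPM in adventitial cells and 20.5 and 17.1 CPM in immune cells. Epithelial cells had 0.578 and 2.20 CPM, and endothelial cells had 0 UMIs in library 1 and 1 UMI in library 2. Stromal and immune values interleaved. The epithelial values of each library were lower, and so was the endothelial one of library 2. The endothelial count of 0 in library 1 has an upper limit of 30.9 CPM and cannot be placed below the other groups. In library 2 the alveolar level was 34.6 times the endothelial one (counting interval 6.18 to 1366), and the fit called this difference (adjusted p = 0.000829). The alveolar level exceeded the epithelial one by 2.63 on the log2 scale (SE 0.604, adjusted p = 0.00137). Alveolar cells were not called different from immune cells (-0.93, -1.85 to -0.011, adjusted p = 0.0837), and the value was 0.041 after thinning.

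**Figure D3:**
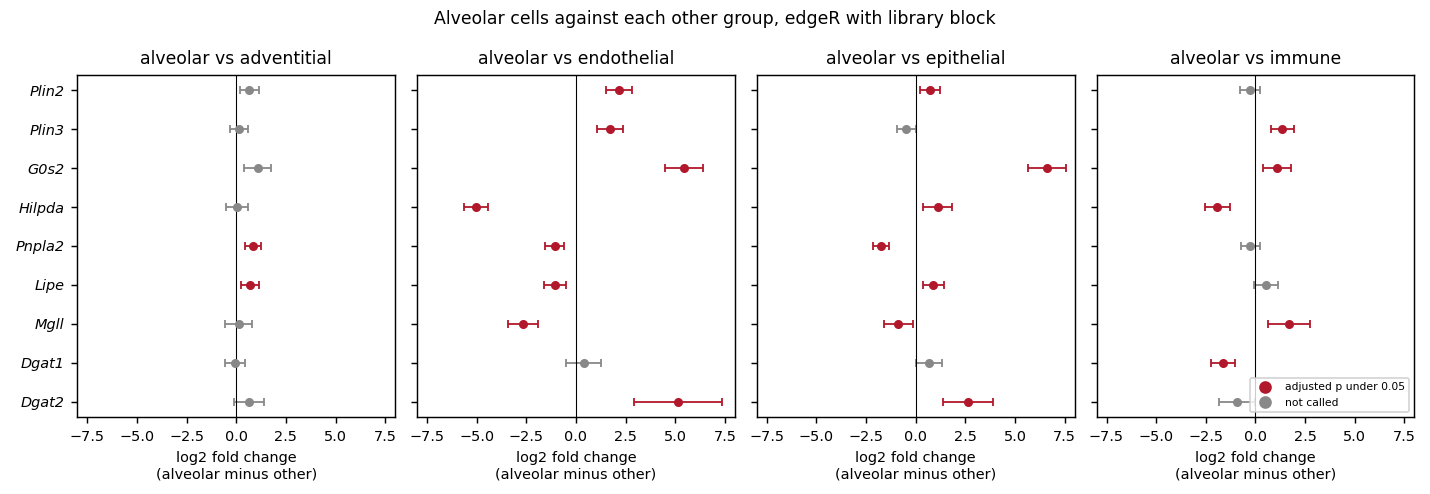
Fitted log2 fold change (horizontal axis, alveolar minus the other group) of the 9 tested genes with 95% intervals, from edgeR with library as a block. Red points have an adjusted p under 0.05. *Hilpda* and *Mgll* lie furthest to the left against endothelial cells (-5.03 and -2.68), and *G0s2* furthest to the right against epithelial cells (6.60).

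Counted over the 9 tested genes, 2 were called between alveolar and adventitial cells, both higher in alveolar cells, where 8.71% of all tested genes were called. Between alveolar and endothelial cells 8 were called, 4 in each direction, with 33% of all genes as background. Between alveolar and epithelial cells 7 were called, 5 of them higher in alveolar cells (background 51.1%), and between alveolar and immune cells 5, with 3 higher in alveolar cells (background 52.4%). The share called among the droplet genes was thus above the background against endothelial cells and close to it against immune cells. Against adventitial and epithelial cells it was above the background in this fit, but those counts moved with the processing. Against adventitial cells the count ran from 0 to 4 over the settings. Against epithelial cells it was 4 with the DESeq2 test, where 45.4% of all tested genes were called. The genes and the cell rule were chosen with earlier results of these data known. The background genes were not matched for level, so these shares are a description only. Between adventitial and endothelial cells 8 genes were called (background 33.2%), between adventitial and epithelial cells 6 (background 48.2%) and between adventitial and immune cells 7 (background 50.8%). Endothelial cells were called different from epithelial cells in 6 (background 40.4%) and from immune cells in 8 (background 36.1%), and epithelial from immune cells in 8 (background 48%). Comparisons that share a group share its 2 sums and are not separate evidence. The median difference over the 9 genes was 0.64 for alveolar minus adventitial, 0.39 minus endothelial, 0.70 minus epithelial and -0.25 minus immune cells, and over all tested genes it was 0.033, 0.18, 0.11 and 0.18.

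In endothelial cells *Hilpda*, *Lipe* and *Mgll* were called higher than in each of the 4 other groups, and *Pnpla2* higher than in alveolar, adventitial and immune cells. Between endothelial and epithelial cells, whose CPM means of *Pnpla2* were 118.5 and 116.3, the fit placed endothelial cells lower (-0.68, SE 0.232, adjusted p = 0.0271). *Plin2* and *Plin3* were called lower in endothelial than in alveolar, adventitial and epithelial cells. Alveolar fibroblast markers summed to 778 and 515 CPM in endothelial cells, and their part in the endothelial levels of stromal genes such as *G0s2* was not tested.

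**Figure D4:**
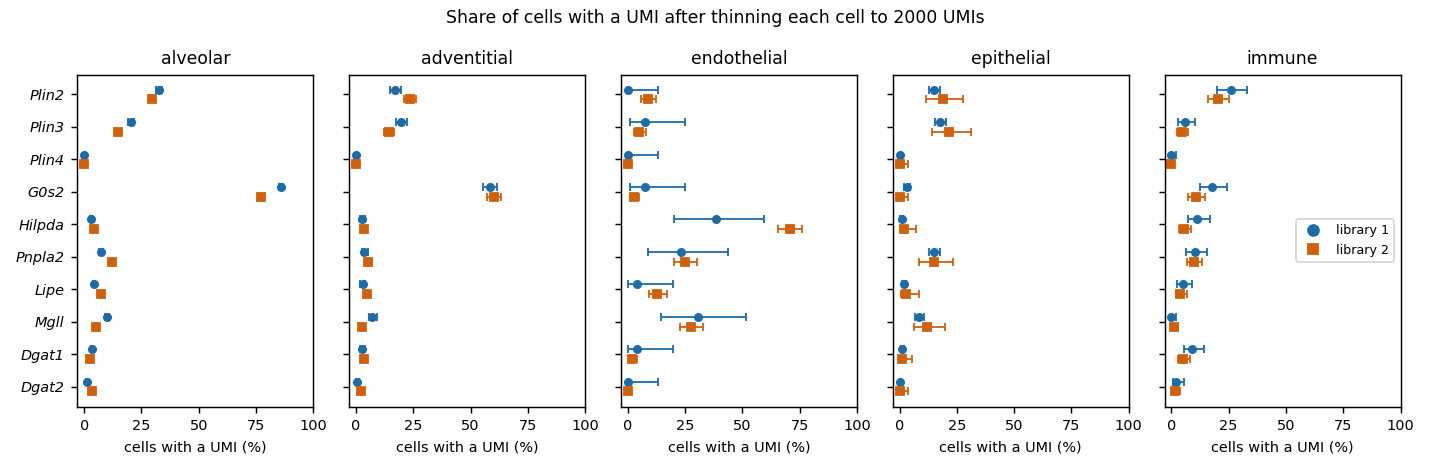
Share of cells with at least 1 UMI of each gene (percent, horizontal axis) after thinning every cell to 2000 UMIs, by cell group, with library 1 as circles, library 2 as squares and exact 95% intervals. *G0s2* is found in 86.0% and 77.0% of alveolar cells, *Hilpda* in 38.5% and 70.8% of endothelial cells, and *Plin4* in 0% to 0.127% of cells in each sum.

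The libraries differed from each other in several genes, with 1 library on each side and therefore no test. *Dgat2* was 3.62 and 4.95 times as high in library 2 as in library 1 in alveolar and adventitial cells, and 0.833 times in immune cells. *Pnpla2* was 1.20 to 1.80 times as high in library 2 over the 5 groups. *G0s2* was 0.168 to 0.719 times as high over the 5 groups and *Mgll* 0.388 to 0.833 times over the 4 groups other than immune cells, so both were lower in library 2 there. *Hilpda* in endothelial cells (1.02 times) and *Plin2* in immune cells (0.946 times) were nearly equal. Genes induced by digestion (*Fos*, *Fosb*, *Jun*, *Junb*, *Egr1*, *Atf3*, *Ier2* and *Dusp1*) summed to 25240 CPM in library 1 and 15820 in library 2 in alveolar cells, 22750 and 16670 in adventitial cells, 21270 and 9725 in endothelial cells and 7476 and 4979 in epithelial cells. They were lower in library 2 in these 4 groups, as *G0s2* and *Mgll* were. In immune cells they were higher in library 2 (6008 and 7429), where *G0s2* was lower and *Mgll* higher, and their part in the differences between libraries was not tested.

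Other genes of neutral lipid storage were followed as a list of 41, of which 30 passed the filter. Between alveolar and endothelial cells 13 of these were called higher in alveolar cells and 3 lower, where 33% of all tested genes were called. Their median was 0.80, against 0.18 over all tested genes. Among those with at least 20 CPM in 1 of the groups, the minimum for naming, the largest differences were in *Gpam*, which starts glycerolipid synthesis (93.9 against 3.79 CPM, 4.14, SE 0.485, adjusted p = 1.86e-06), *Soat1*, which esterifies cholesterol (35.3 against 2.44 CPM, 3.14), and *Lrat*, which esterifies retinol (202.5 against 36.3 CPM, 3.11). *Lpin2*, a phosphatidate phosphatase, and *Acsl5*, which activates fatty acids, were lower in alveolar cells (-1.53 and -1.19). Between alveolar and epithelial cells 7 were higher and 9 lower (background 51.1%). Here the lysosomal lipase gene *Lipa* (136.6 against 1.21 CPM, 7.31), *Lrat* (7.17) and *Agpat4* (5.36) were higher in alveolar cells, and *Acsl4* (22.7 against 464.7 CPM, -4.92), *Soat1* (-4.02) and *Lpin2* (-3.88) were lower. Between alveolar and immune cells 11 were higher and 8 lower (background 52.4%). *Lrat* (5.96), *Gpam* (5.78) and *Fitm2*, needed for droplets to bud (3.13), were on the alveolar side. On the immune side were *Pnpla7* (-1.82), *Soat1* (-1.66) and *Acsl5* (-1.28). The share called on this list was close to the background against epithelial and adventitial cells. Between alveolar and adventitial cells 3 were called (background 8.71%). *Lpin2* was higher in alveolar cells (0.91, adjusted p = 0.0465), and *Lrat* was lower (202.5 against 298.4 CPM, -0.73, adjusted p = 0.0364). The third, the low monoacylglycerol lipase gene *Abhd6*, fell under the minimum of 20 CPM for naming and is given after its values were seen (0.673 against 3.02 CPM, -2.13, adjusted p = 0.00318).

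For each gene the 3 others with the most similar level over the 10 sums were found by Pearson's correlation of log2(CPM + 1) among the 6306 genes that averaged 20 CPM or more. These sums share libraries and depth, and the values are a description. *Hilpda* was closest to *Tpst2* (0.99), *Ptp4a3* (0.98) and *Ctla2a* (0.98), and *G0s2* to *Rnh1* (0.98), *Psenen* (0.96) and *Cyp27a1* (0.95). *Plin2* was closest to *Lrch4* (0.96), *Il6ra* (0.94) and *Eml4* (0.93), and *Plin3* to genes that included *Mpst* (0.98) and *Sort1* (0.95). Among the lipases, *Pnpla2* was closest to *Pbx2* (0.97), *Tspan2* (0.91) and *Ralgapa2* (0.90), *Lipe* to *Rapgef2* (0.98), *Tmem165* (0.97) and *Sfswap* (0.97), and *Mgll* to *Irf2bp1* (0.95), *Rab6b* (0.95) and *Ankrd46* (0.95). *Dgat1* was closest to *Ubac2* (0.98), *Cyba* (0.95) and *Sik1* (0.95), and *Dgat2* to *Otulinl* (0.94), *Il6ra* (0.93) and *Ltv1* (0.92). For *Plin4*, whose sums were near the floor, the values were the lowest of the 10 genes (*Sestd1* 0.88, *Klhdc2* 0.88 and *Mtch2* 0.87).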

How the data were processed

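UV-positive lung cells were sequenced as 2 libraries with the 10x Genomics 3' v3.1 chemistry. The authors deposited raw UMI counts per gene and barcode from Cell Ranger 5.0.1, not normalized. The submitters' processing notes name that version and the build mm10. Because 3' UMIs are counted, levels were not divided by gene length. Gene positions were taken by gene ID from GENCODE M21 (GRCm38), which need not be the annotation behind the counts.

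From the counts, UMIs were summed per group and library and tested with edgeR 4.0.16 in R 4.3.3 (TMM, filterByExpr, glmQLFit, glmQLFTest, two-sided, library as a block). Same-numbered sums come from the same library, which pairs them. All 10 sums shared 1 estimate of the spread per gene, with 4 residual degrees of freedom before it was drawn toward the trend over all genes. DESeq2 1.42.0 was an alternative. On simulated counts for alveolar against immune cells, 77% of genes changed 2-fold and 100% of those changed 4-fold were recovered, with 7 of 13326 genes called wrongly. The changed genes were drawn from those with at least 20 CPM over the pooled sums. All other genes were left unchanged and no library effect was simulated. Recovery of lower genes, or against the thinner endothelial sums, was therefore not measured. Barcodes that met several marker rules (420 and 1640), stromal cells with 1 or 2 UMIs of *Dcn* (823 and 895) and cells that met none (317 and 115) entered no group, and no doublet caller was run. Shares of cells with a UMI are also given for cells thinned to 2000 UMIs, shallower cells left out. The study instead clustered the cells and ran rank tests over them. Figures were drawn with matplotlib 3.10.9 under Python 3.11.15.

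The 10 genes, the other lists and the cell rule were chosen with earlier results of these data known. All 10 were named. Of the neutral lipid list, the 3 called genes with the largest change in each direction and at least 20 CPM in 1 group were named. Alternatives chosen after the levels were seen, 3 in number, are named as such. Among the genes most alike in pattern, 1 is not reported here.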

Additional observations from a re-analysis of the deposited data

How the results depend on the processing

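Of the single-gene differences between alveolar and other cells, recomputed under the alternatives with a test, 402 kept their direction and side of the threshold, 24 lost the call, 13 gained it and 2 turned sign. Those 2 had not been called: *Pnpla2* against immune cells (0.18 without cells with neutrophil markers, chosen after seeing the data) and *Dgat2* against immune cells (0.041 after thinning). The number of genes called between alveolar and adventitial cells, 2, was 1 with DESeq2 size factors, 1 with the DESeq2 test, 4 with no filter on low counts, 1 when stromal cells with 1 or 2 UMIs of *Dcn* were added (chosen after seeing the data) and 0 without the library block, where edgeR gave 1 gene at an unadjusted p under 0.05. In these settings, in that order, 9.03%, 4.63%, 7.63%, 7.42% and 1.92% of all tested genes were called. The 7 genes between alveolar and epithelial cells became 4 with the DESeq2 test (45.4% of all tested genes) and 4 without the library block (35.1%). The 6 between adventitial and epithelial cells became 2 with the DESeq2 test (43.8%), 2 without the library block (34.2%) and 3 after thinning (39.9%). Counts for the other 7 comparisons stayed within 1.5 times. The cause of these changes was not tested. Among all genes, the 1161 called between alveolar and adventitial cells were 617 with DESeq2 and 256 without the library block. DESeq2 size factors moved the median of all genes between alveolar and immune cells from 0.18 to 0.04 on the log2 scale and turned no direction. Leaving out surfactant and secretoglobin genes, also chosen after seeing the data, changed 1 call, *G0s2* against adventitial cells (1.08, adjusted p = 0.0409). Leaving out a library left 1 sum per group, hence a value and no test. Of these 72 values 4 turned sign, none of a called difference: *Mgll* (-0.046) and *Dgat1* (0.065) against adventitial cells and *Lipe* against immune cells (-0.17) without library 2, and *Pnpla2* against immune cells (0.014) without library 1. Depth limits most the endothelial sum of library 1.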

Other observations

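Barcodes that met several marker rules at once, which entered no group, had 56.1 CPM of *Hilpda* in library 1 and 251.4 CPM in library 2, and 840.1 and 452.7 CPM of *G0s2*. Their *Plin2* level was 120.1 and 125.8 CPM. They were deep, with a median of 10331 and 17378.5 UMIs. Cells that met none of the rules had 1398 and 725.9 CPM of *G0s2* and 58.3 and 97.7 CPM of *Hilpda*, at a median of 997 and 1279 UMIs.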
